A study of Rattus norvegicus with 24 samples.

Results

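Cultures of rat testis cells were profiled by messenger RNA sequencing before and 48 h after gonadotropins were added, and the 48 h libraries were set against the 0 h libraries. The comparison rests on 6 of the 24 libraries of the study, 3 at 48 h and 3 at 0 h, and on the 12212 of 21425 genes that reached at least 1 CPM in at least 3 of these 6 libraries. CPM scales the reads of a gene to the total of its library. All cells came from testes of 5-day-old wild-type (WT) Sprague Dawley rats, without enrichment or depletion of any cell type, and were seeded at 5000000 cells per mL in 4.5 mg/mL Matrigel, an extract of basement membrane. They were kept for 10 days in serum-free medium, of which 50% was replaced every 24 h. The 0 h libraries, labelled control, were taken on day 10 before any hormone was given. The 48 h libraries had received luteinizing hormone (LH) at 50 mIU/mL together with follicle-stimulating hormone (FSH) at 20 mIU/mL, in fresh medium. Each group holds 1 library per litter from 3 litters, and each library pools 3 cultures, so the 3 litters are the biological replicates. No untreated 48 h library was analysed here, so hormone, fresh medium and 2 further days in culture cannot be told apart in any difference below. The gel itself holds laminin and type IV collagen protein, which does not enter RNA counts.

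LH acts on Leydig cells, which lie between the tubules, and FSH acts on Sertoli cells inside them. Both receptors raise cyclic AMP. In Leydig cells this drives androgen synthesis, in which Star brings cholesterol into the mitochondrion, Cyp11a1 cleaves its side chain and Cyp17a1 turns the product towards androgens. Sertoli cells answer FSH with inhibin and other secreted proteins, nurse the germ cells and rest on a basement membrane of type IV collagens and laminins that they build together with the peritubular cells around them.

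The 0 h libraries held 20900000 to 25300000 reads and the 48 h libraries 16500000 to 16900000 reads. A single read was therefore worth 0.0395 to 0.0606 CPM, and a gene listed at 0 could have up to 3 reads, or 0.118 to 0.182 CPM, by counting error alone. Reads outside the listed genes were 4.25 to 4.69% of each library. Defining markers of the testis were present. Sertoli cell genes were detected in all 6 libraries (144 to 187 CPM of Sox9 at 0 h and 147 to 187 CPM at 48 h). Germ cell genes were present at low levels (4.62 to 7.18 CPM and 3.27 to 6.18 CPM of Ddx4). Of genes typical of Leydig cells, Star, Cyp11a1 and Cyp17a1 were detected, Hsd3b1 was not analysed here, and Hsd3b2 was listed at 0 in all 6 libraries. Insl3 was also listed at 0, but it overlaps B3gnt3 and its level differed sharply between the 2 experiments of the study, so its counting is uncertain and the 0 does not show absence. Along the leading principal component (42.0% of variance) each 48 h library lay above the 0 h library of its litter, and the litter 2 libraries were the lowest of each time. The sign of this axis was set to make 48 h of litter 1 positive. It did not separate the times: 48 h of litter 2 (-10.96) lay below 0 h of litter 1 (-1.18) and of litter 3 (-3.48). In what follows, values given for 3 libraries are in the order of litters 1, 2 and 3. A fold change is the difference of log2(CPM + 1) in limma with litter as a block, with the SE of that fit. This SE borrows spread from other genes of like level, so it is not the SE of the 3 litter changes alone. On the log2(CPM + 1) scale the change of low genes is understated.

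By 48 h, 140 genes had risen and 127 had fallen at an adjusted p under 0.05 in limma with litter as a block. Together they were 2.19% of the genes tested, 1.15% that rose and 1.04% that fell. Of these, 57 changed by at least 2-fold (0.467%), 46 upwards (0.377%) and 11 downwards (0.0901%). The lowest adjusted p was 0.00562. All 267 genes moved the same way in each of the 3 litters. They were called on these same paired differences, so the selection favours a common sign, which is not separate support. For 213 of them the 48 h libraries lay wholly above (120) or wholly below (93) the 0 h libraries. The median change over all tested genes was -0.034. At an unadjusted p under 0.05 there were 2774 of the 12212 genes, and over all genes tested 8.43% had every 48 h library above every 0 h library and 12.1% had every one below. These shares, with the 1.15% that rose and the 1.04% that fell, are the background for the counts of list members below.

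**Figure D1:**
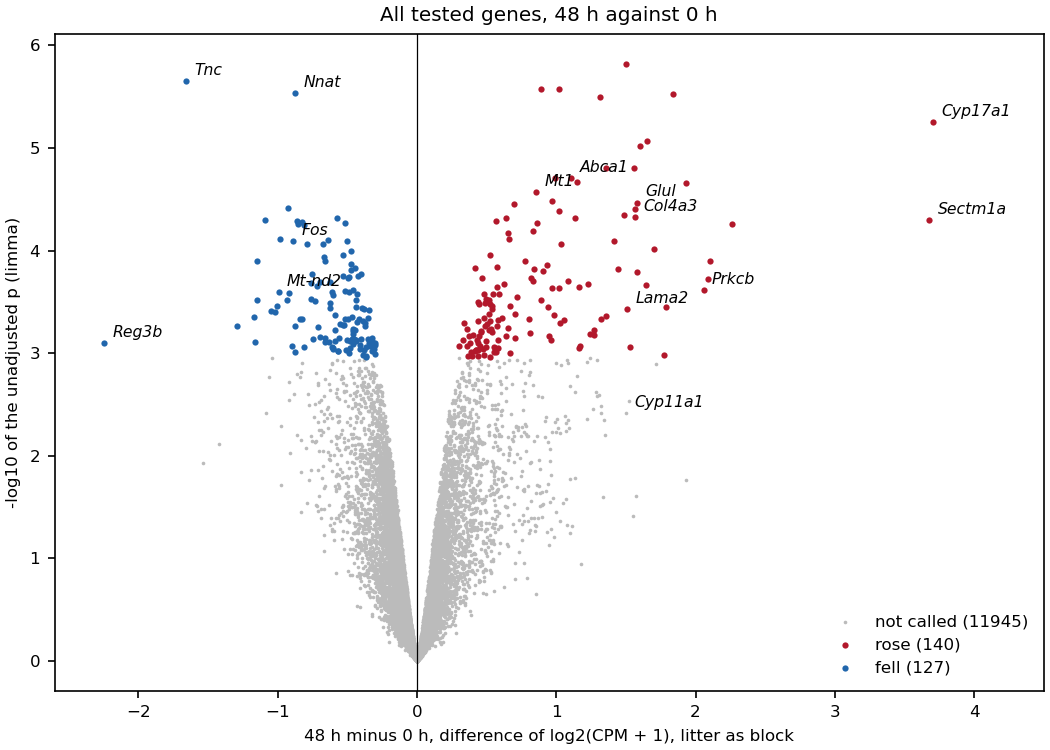
Each point is 1 of the 12212 tested genes, with its change from 0 h to 48 h (difference of log2(CPM + 1)) on the x axis and -log10 of its unadjusted limma p on the y axis. The 140 genes that rose are red, the 127 that fell are blue, and Cyp17a1 and Sectm1a, at changes of 3.71 and 3.68, lie farthest to the right, while Cyp11a1 lies below the called genes.

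These calls rested on the pairing by litter and on a spread estimated as a trend over expression level. Without the litter term 2 genes were called, and with a spread prior that ignored expression level 0 were called, with 2445 at an unadjusted p under 0.05. Every gene described below as risen or fallen thus lost its call in the latter setting. With edgeR on the recovered reads 130 genes rose and 66 fell, and with DESeq2 347 rose and 173 fell. The share of rises among the calls was 52.4%, but 67.5% with TMM scaling, 66.3% with edgeR and 66.7% with DESeq2, so the balance of rises against falls depended on the scaling. Leaving out a litter gave 112 calls without litter 1, 751 without litter 2 and 111 without litter 3, of which 42.9%, 64.0% and 73.0% were rises. Of the 77 called genes singled out by rule, 35 kept their call without litter 1, 76 without litter 2 and 35 without litter 3.

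Neither hormone receptor passed the test. Lhcgr, the LH receptor, had 0.862, 5.00 and 0.671 CPM at 0 h and 6.79, 8.26 and 0.888 CPM at 48 h, high in litter 2 at both times, higher at 48 h in every litter and overlapping between the times (log2 fold change 0.96 ± 0.34, adjusted p = 0.17). Fshr, the FSH receptor, had 12.5, 11.5 and 11.2 CPM at 0 h and 12.1, 13.0 and 9.29 CPM at 48 h, with no common direction (log2 fold change -0.046 ± 0.11, adjusted p = 0.839). Among the 15 tested genes of gonadotropin receptors and cyclic AMP signalling, which include the adenylyl cyclases and the subunits of protein kinase A, 0 were called by limma and 0 by edgeR, 1 rose with DESeq2, and 4 had an unadjusted p under 0.05. The regulatory subunit Prkar2b had 25.6, 27.9 and 34.5 CPM at 0 h and 47.6, 46.6 and 40.7 CPM at 48 h, all higher at 48 h, without passing the test (log2 fold change 0.61 ± 0.12, adjusted p = 0.064). Of 20 tested targets and feedback genes of cyclic AMP, such as the phosphodiesterases, Crem and the Nr4a receptors, 0 were called by limma, edgeR or DESeq2, 5 had an unadjusted p under 0.05, and the median was -0.076. Nr4a1, a fast cyclic AMP target, had 22.03, 47.2 and 23.9 CPM at 0 h and 19.8, 32.4 and 21.7 CPM at 48 h, lower in each litter but overlapping (log2 fold change -0.27 ± 0.10, adjusted p = 0.179).

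In steroid synthesis, Cyp17a1, the enzyme that commits steroids to androgens, had 0.335, 2.08 and 0.276 CPM at 0 h and 31.0, 36.3 and 8.82 CPM at 48 h. It was near the detection limit at 0 h in litters 1 and 3 and above the 0 h range in every litter at 48 h, although litter 3 reached only about the level that it had at 12 h (8.79, 26.2 and 9.22 CPM at 12 h). The mean rose from 0.898 ± 1.03 to 25.4 ± 14.6 CPM (SD, n = 3 litters). This is a ratio of means of 28.3 (log2 fold change 3.71 ± 0.29, adjusted p = 0.00849). Leaving out litter 1, 2 or 3 gave changes of 3.27, 3.76 and 4.09, each still called. At a pseudocount of 1 Cyp17a1 and Sectm1a had the highest log2 changes of the comparison, and their order turned with a pseudocount of 4 (2.44 and 2.88) and without litter 2 (3.76 and 4.32). Cyp11a1, the side-chain cleavage enzyme, had 5.32, 6.83 and 9.55 CPM at 0 h and 25.8, 33.6 and 11.8 CPM at 48 h. All 3 libraries were higher at 48 h, by little in litter 3, and it was not called (log2 fold change 1.50 ± 0.35, adjusted p = 0.0817), but it was called without litter 3, at a change of 2.11.

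Star, the cholesterol carrier that limits the rate of steroid synthesis, had 35.8, 54.7 and 62.1 CPM at 0 h and 59.7, 72.4 and 64.0 CPM at 48 h, higher in each litter but overlapping (log2 fold change 0.39 ± 0.12, adjusted p = 0.14). Its level was highest at 2 h, at 65.8, 194 and 94.8 CPM. Hsd17b3, which makes testosterone, had 16.7, 12.7 and 22.7 CPM at 0 h and 19.3, 21.3 and 23.02 CPM at 48 h and overlapped (log2 fold change 0.31 ± 0.14, adjusted p = 0.243). In all, 1 of 13 tested steroid synthesis genes rose and 0 fell (1.15% and 1.04% of all genes tested did), with a median of 0.15. Nr5a1, the transcription factor that drives many of these genes, was at 167 to 203 CPM at 0 h and 161 to 215 CPM at 48 h (log2 fold change 0.012 ± 0.074, adjusted p = 0.941). The summed level of the 8 Leydig cell markers in the table was 242, 302 and 295 CPM at 0 h and 343, 409.6 and 287 CPM at 48 h, higher in litters 1 and 2 and lower in litter 3. Most of this sum was Nr5a1, at 167, 203 and 182 CPM at 0 h and 183, 215 and 161 CPM at 48 h. Of the 7 markers tested, 5 were higher at 48 h in all 3 litters and 0 lower (17.8% and 29.0% of all genes were). A change in the number of cells of a type and a change in RNA per cell cannot be told apart in these bulk libraries.

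Cholesterol handling gave calls in both directions. Abca1, which exports cholesterol from the cell, rose from 80.7, 70.3 and 95.9 CPM to 215, 126 and 204 CPM (log2 fold change 1.11 ± 0.10, adjusted p = 0.0166), the only one of 13 tested genes of cholesterol delivery to be called. Of 21 tested genes of cholesterol synthesis, 5 fell and 0 rose, 18 were lower at 48 h in all 3 litters (against 29.0% of all genes tested) and the median was -0.38. Hmgcs1, which makes the HMG-CoA that enters the mevalonate pathway, had 170.4, 206 and 188 CPM at 0 h and 123.4, 159 and 121.9 CPM at 48 h. Its 48 h libraries all lay below the 0 h libraries (log2 fold change -0.49 ± 0.066, adjusted p = 0.03). The same held for Idi1 (-0.59 ± 0.091), Fdps (-0.46 ± 0.075), Acat2 (-0.44 ± 0.075) and Sqle (-0.43 ± 0.069), which act later in the pathway or, for Acat2, at its start. The fall was set against a peak in between: Hmgcs1 stood at 339.6, 278 and 337 CPM at 2 h and Idi1 at 75.6, 61.3 and 74.3 CPM, against 36.8, 39.0 and 30.5 CPM at 0 h and 21.8, 29.8 and 19.2 CPM at 48 h. The count of 5 was 0 without litter 1, 13 without litter 2 and 0 without litter 3, and 2 with TMM scaling or edgeR.

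**Figure D2:**
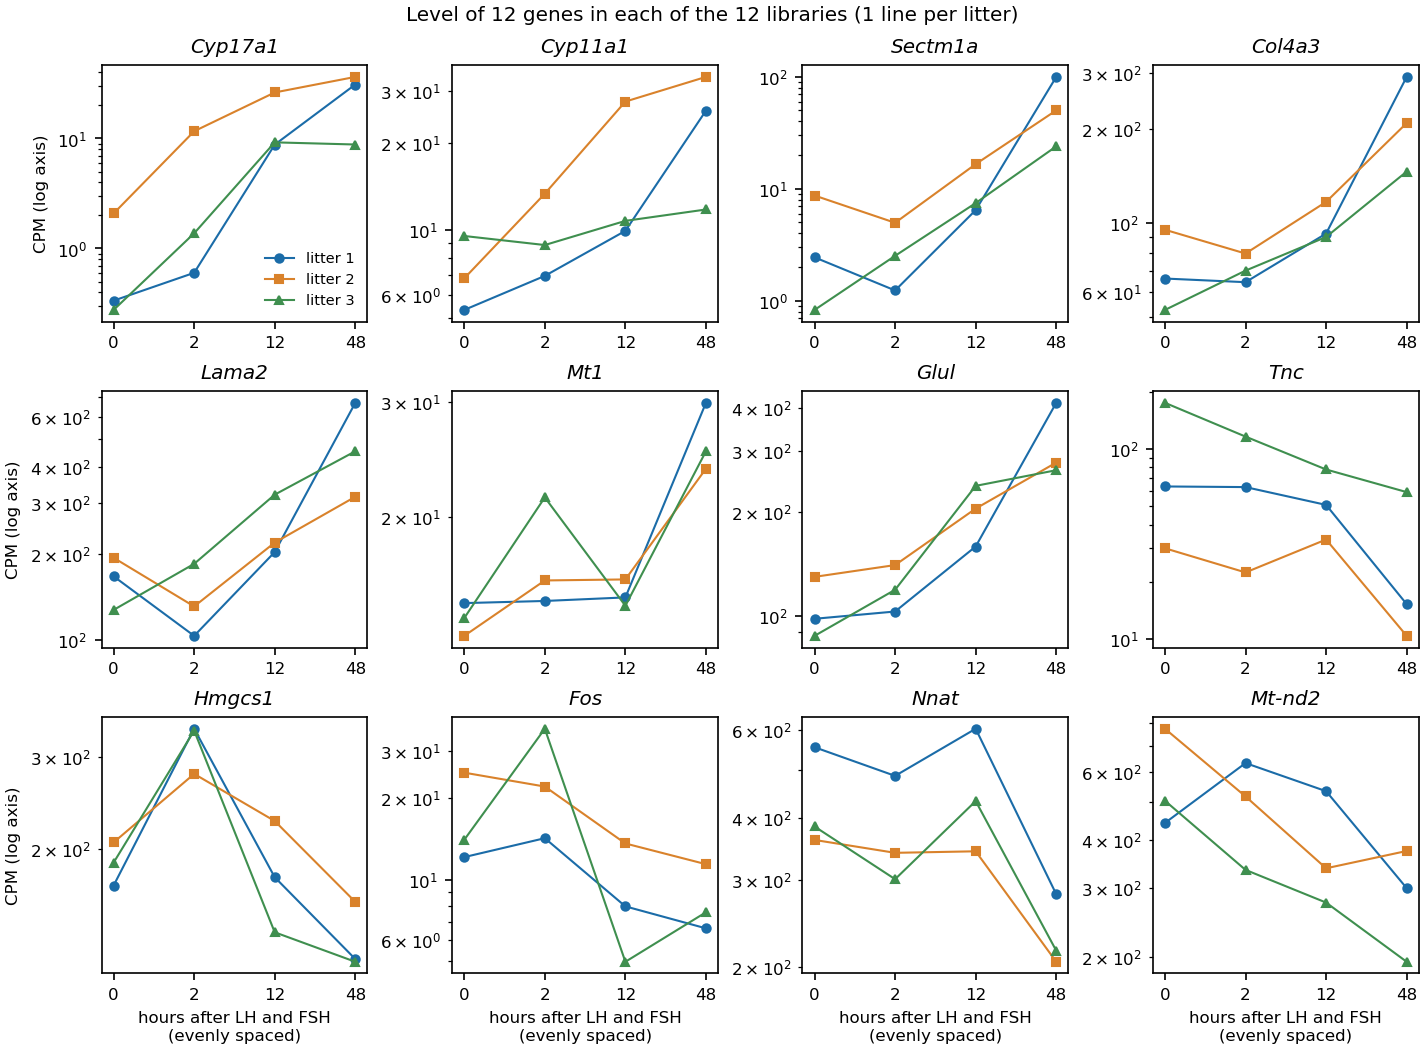
Each panel shows 1 gene, with CPM on a log axis against hours after LH and FSH (evenly spaced) and 1 line per litter. Sectm1a, Col4a3, Lama2, Glul and Mt1 are highest at 48 h in every litter, and Cyp17a1 in litters 1 and 2. Hmgcs1 peaks at 2 h before it falls below its 0 h level.

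Of 20 tested immediate early genes, most of which encode transcription factors switched on within minutes of a stimulus, 6 fell and 0 rose. At 48 h 14 were lower in all 3 litters (29.0% of all genes were), and the median was -0.40. Fos, a subunit of AP-1, had 12.1, 24.9 and 14.0 CPM at 0 h and 6.60, 11.4 and 7.57 CPM at 48 h. Each 48 h library lay below all 0 h libraries (log2 fold change -0.89 ± 0.10, adjusted p = 0.0216). Fosb, its close relative, had 6.80, 18.2 and 10.1 CPM at 0 h and 4.06, 7.07 and 4.02 CPM at 48 h, overlapping between the times but lower in each litter (log2 fold change -1.01 ± 0.15, adjusted p = 0.0357). Egr1 (-0.52 ± 0.057), Egr2 (-0.84 ± 0.13), Ier3 (-0.59 ± 0.10) and Klf6 (-0.45 ± 0.073) fell without overlap. Egr1, a zinc-finger factor, went from 209, 293 and 234 CPM to 139, 204 and 172 CPM, and of 14 alternatives only the fits without the litter term and without the trend lost its call. The count of 6 was 4, 7 and 3 without litters 1, 2 and 3, and 3 with TMM scaling or edgeR. These genes were not all at their highest at 0 h: at 2 h Fosb had 16.5, 21.3 and 111 CPM and Fos 14.2, 22.1 and 36.2 CPM, with litter 3 the highest of the 3.

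Many immediate early promoters carry CArG boxes, the sites of serum response factor. In the 250 bases before the start, a CArG box (either strand) was found in 501 of 33469 promoter windows (1.5%). It was found in 1.30% of those of the genes tested, in 8 of 103 windows of genes that fell and in 2 of 120 of genes that rose. Egr1, Egr2 and Klf6 had one, Fosb had none, and Fos and Ier3 had no window in the table. The motif was searched after the falls were known, and a match is a description of these letters only. The windows of Egr2 (chr20:21054442-21054691, minus strand) and Klf6 (chr17:69458479-69458728, minus strand), from RefSeq on GRCr8, are shown because both genes fell, with the CArG box in capitals.
Egr2: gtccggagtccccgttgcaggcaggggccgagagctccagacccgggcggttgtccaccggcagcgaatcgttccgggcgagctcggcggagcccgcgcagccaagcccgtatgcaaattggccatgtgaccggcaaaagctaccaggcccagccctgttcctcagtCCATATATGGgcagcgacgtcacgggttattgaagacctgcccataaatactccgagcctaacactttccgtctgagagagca
Klf6: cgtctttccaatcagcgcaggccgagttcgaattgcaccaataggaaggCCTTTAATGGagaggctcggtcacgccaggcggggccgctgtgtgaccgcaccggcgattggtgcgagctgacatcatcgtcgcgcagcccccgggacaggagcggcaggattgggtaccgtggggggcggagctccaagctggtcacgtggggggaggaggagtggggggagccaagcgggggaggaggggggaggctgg

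Among 16 tested products of Sertoli cells and targets of FSH, 0 rose and 1 fell: Fabp5, a fatty acid carrier, went from 23.7, 27.3 and 18.3 CPM to 14.1, 13.1 and 9.70 CPM (log2 fold change -0.85 ± 0.095, adjusted p = 0.018). Inha, the inhibin alpha subunit by which Sertoli cells restrain FSH release, had 232, 209 and 236 CPM at 0 h and 334, 411 and 268 CPM at 48 h. It was higher without overlap at 48 h, most in litter 2, but was not called (log2 fold change 0.56 ± 0.14, adjusted p = 0.0882). Inhbb, the inhibin beta B subunit, had 676, 583 and 589 CPM at 0 h and 819, 1083 and 715 CPM at 48 h and was not called either (log2 fold change 0.48 ± 0.13, adjusted p = 0.103). Fst, which binds activin, was likewise not called, at a change of 0.58 ± 0.14 (adjusted p = 0.085). Each of these 3 genes was called when all 12 induction libraries were fitted together. Amh, the anti-Müllerian hormone of immature Sertoli cells, had 109, 118 and 164 CPM at 0 h and 145, 151 and 154 CPM at 48 h and overlapped (log2 fold change 0.22 ± 0.099, adjusted p = 0.24). Of the 13 tested genes of the inhibin, activin and AMH system only Tgfbr3, the co-receptor for inhibin, passed the test: it rose from 81.0, 111 and 83.2 CPM to 216, 164 and 179 CPM (log2 fold change 1.02 ± 0.14, adjusted p = 0.0316). Of the 25 tested junction genes of the blood-testis barrier 0 were called by limma or edgeR, 2 with DESeq2, and 4 had an unadjusted p under 0.05.

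Basement membrane genes were among those that rose. Of 19 tested, 6 rose and 0 fell, 11 had all 48 h libraries above all 0 h libraries (8.43% of all genes did), and the median was 0.32. The largest rises were those of Col4a3 and Col4a4, which encode the alpha3 and alpha4 chains of type IV collagen. Col4a3 had 66.4, 95.0 and 52.7 CPM at 0 h and 292, 208 and 146 CPM at 48 h, a 3.02-fold higher mean (log2 fold change 1.56 ± 0.17, adjusted p = 0.018). Col4a4 had 489.5, 629 and 343 CPM at 0 h and 1718, 1147 and 1016 CPM at 48 h (log2 fold change 1.41 ± 0.17, adjusted p = 0.0216). Its level at 12 h, 557, 672 and 729.7 CPM, lay above that at 0 h in each litter. Both rose most in litter 1 and least in litter 2. Lama2, the laminin alpha2 chain, had 167, 194 and 127 CPM at 0 h and 671, 316 and 455 CPM at 48 h, with the same order of litters (log2 fold change 1.51 ± 0.23, adjusted p = 0.0359).

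Smaller rises were called for Col4a6 (0.70 ± 0.072, adjusted p = 0.018), Lamc1, the common laminin gamma1 chain (0.52 ± 0.085, adjusted p = 0.042), and Col4a5 (0.48 ± 0.069, adjusted p = 0.0323). Col4a1 and Col4a2, the chains of the common type IV network, were higher at 48 h without overlap, at 6854 to 7114 CPM against 5825 to 6254 CPM and 4645 to 4858 CPM against 3958 to 4309 CPM, and were not called (0.21 ± 0.12 and 0.22 ± 0.11). All 6 type IV chains were thus higher in each of the 3 litters, and 4 of the 6 rose. Lama1, the laminin alpha1 chain, had 166, 199 and 197 CPM at 0 h and 267, 255 and 243 CPM at 48 h and narrowly missed the threshold (log2 fold change 0.45 ± 0.083, adjusted p = 0.0512). The count of 6 was 3, 10 and 3 without litters 1, 2 and 3, 4 with a robust prior and 11 with DESeq2.

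Col4a3 and Col4a4 are neighbours that are read in opposite directions from starts 413 bases apart, so their promoter windows overlap. The 250 bases before each start are printed from RefSeq (GRCr8) because the pair rose together, Col4a3 at chr9:91323740-91323989 on the plus strand and Col4a4 at chr9:91323578-91323827 on the minus strand. Capitals mark the 88 bases that both windows share, on opposite strands.
Col4a3: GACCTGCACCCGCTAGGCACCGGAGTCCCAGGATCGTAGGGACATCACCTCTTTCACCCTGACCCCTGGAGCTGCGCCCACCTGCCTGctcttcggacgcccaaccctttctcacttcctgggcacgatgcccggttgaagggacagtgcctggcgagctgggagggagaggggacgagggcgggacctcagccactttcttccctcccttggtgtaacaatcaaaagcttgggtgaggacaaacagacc
Col4a4: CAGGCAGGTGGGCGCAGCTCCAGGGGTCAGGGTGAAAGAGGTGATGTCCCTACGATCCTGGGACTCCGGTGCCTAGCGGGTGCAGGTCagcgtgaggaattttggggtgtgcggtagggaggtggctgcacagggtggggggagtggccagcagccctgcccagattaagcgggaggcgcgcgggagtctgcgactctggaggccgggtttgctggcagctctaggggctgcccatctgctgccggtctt

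Other matrix genes divided. Over all genes tested 1.15% rose and 1.04% fell. Among 17 tested collagens outside basement membranes, 3 rose and 0 fell: Col6a1 from 895, 809 and 840.4 CPM to 1519, 1041 and 1285 CPM (log2 fold change 0.58 ± 0.091, adjusted p = 0.0388), Col6a2 (0.45 ± 0.079) and Col15a1 (0.46 ± 0.063). Collagen VI forms fine filaments that link cells to the matrix. These 3 calls were lost without litter 1 and without litter 3. Among 18 tested matricellular proteins and proteoglycans, 3 fell and 1 rose. The falls were 1, 4 and 1 without litters 1, 2 and 3, and the rise was lost without litter 3. Tnc, tenascin C of wounded and developing tissue, had 63.4, 30.0 and 174 CPM at 0 h and 15.3, 10.4 and 59.2 CPM at 48 h. Litter 3 was far higher than the others at both times, so the groups overlapped, yet the level fell by 1.99, 1.44 and 1.54 on the log2(CPM + 1) scale within litters 1, 2 and 3 (log2 fold change -1.66 ± 0.11, adjusted p = 0.00562). Thbs1, thrombospondin 1, had 1037, 863 and 1316 CPM at 0 h and 518, 634 and 912 CPM at 48 h, overlapping but lower in each litter (log2 fold change -0.66 ± 0.11, adjusted p = 0.045). Ccn1, a target of serum response factor and YAP, had 333, 314 and 262 CPM at 0 h and 166, 230.2 and 147 CPM at 48 h, lower without overlap (log2 fold change -0.76 ± 0.10, adjusted p = 0.0308). Vcan, the large proteoglycan versican, rose (0.44 ± 0.069, adjusted p = 0.039).

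Fbln5, which assembles elastic fibres, fell within each litter from 194, 118 and 316 CPM to 112, 91.5 and 199 CPM, with overlap between the times (log2 fold change -0.60 ± 0.087, adjusted p = 0.0326). Of 31 tested matrix proteases and inhibitors, 4 rose and 0 fell (1.15% and 1.04% of all genes tested did). The rises were 1, 8 and 3 without litters 1, 2 and 3. Timp3, an inhibitor of metalloproteases that binds to matrix, rose from 221, 221 and 299.5 CPM to 350.2, 339 and 367 CPM (log2 fold change 0.52 ± 0.083, adjusted p = 0.039). The protease Adamts1, which cleaves versican, rose (0.55 ± 0.078), as did Adamts15 from a low level (0.862, 0.749 and 0.552 CPM to 5.27, 2.44 and 2.31 CPM). Mmp11 also rose (0.66 ± 0.075), but its reads cannot be told from those of Chchd10, which overlaps it, and its level differed so much between the 2 experiments of the study that its counting is uncertain. Mmp28, which was called at a fall and shares that uncertainty, is given no value.

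**Figure D3:**
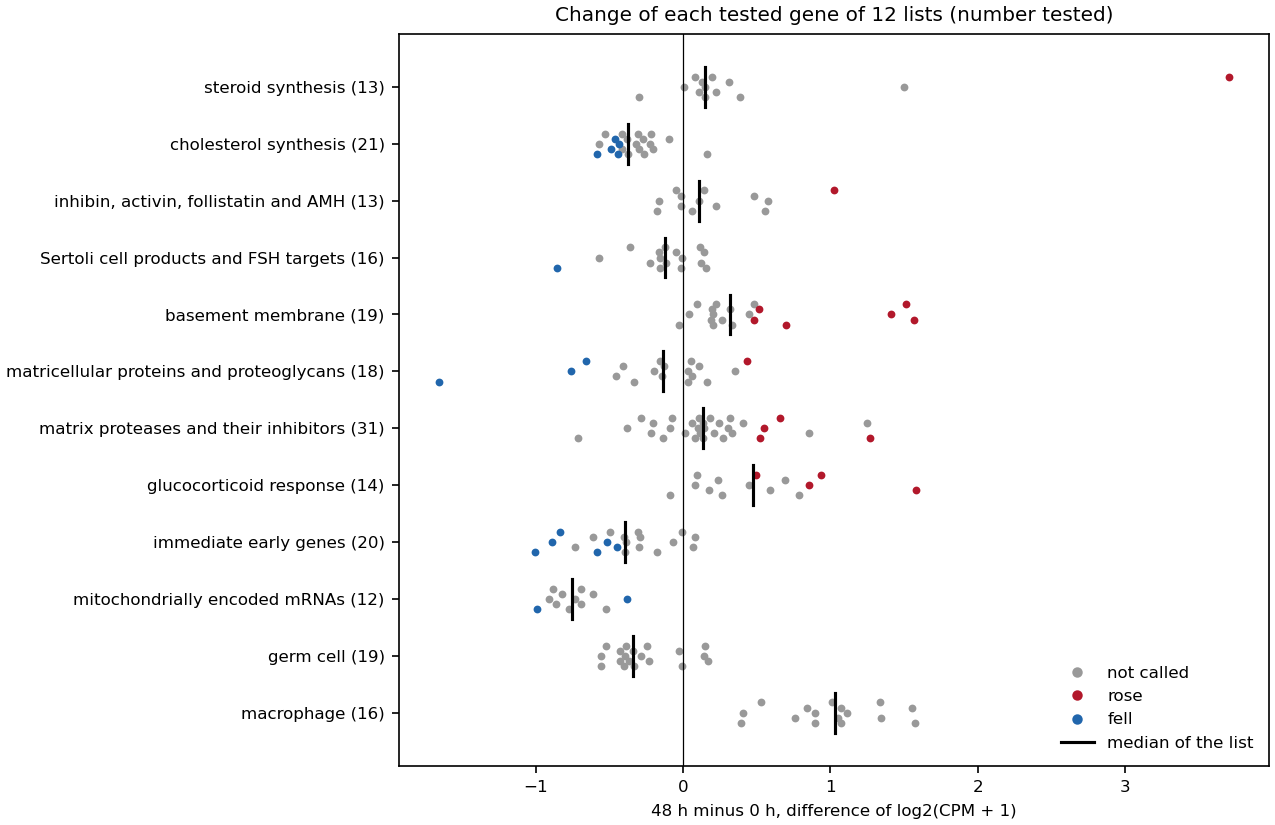
Each point is a tested gene of 1 of 12 lists, placed by its change from 0 h to 48 h, red where it rose, blue where it fell and grey where it was not called, with a black line at the median of the list. Basement membrane, glucocorticoid response and macrophage genes lie mostly to the right of 0, with medians of 0.32, 0.47 and 1.03, and cholesterol synthesis, immediate early and mitochondrial genes mostly to the left, with medians of -0.38, -0.40 and -0.76.

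Of 14 tested genes known to respond to glucocorticoids, 4 rose and 0 fell, 9 were higher in all 3 litters (17.8% of all genes were), and the median was 0.47. Glul, glutamine synthetase, had 98.3, 130.0 and 87.8 CPM at 0 h and 414, 278 and 264 CPM at 48 h, a 3.03-fold higher mean (log2 fold change 1.58 ± 0.16, adjusted p = 0.018), with 12 h levels in between at 159, 205 and 238 CPM. Fkbp5, a co-chaperone of steroid receptors, had 90.5, 106 and 97.0 CPM at 0 h and 144, 144 and 126 CPM at 48 h (log2 fold change 0.49 ± 0.072, adjusted p = 0.0338). The metallothioneins Mt1 and Mt2A, small proteins that bind zinc, rose as well. Mt1 had 14.8, 13.2 and 14.0 CPM at 0 h and 29.9, 23.7 and 25.2 CPM at 48 h (log2 fold change 0.86 ± 0.085, adjusted p = 0.018). Mt2A had 5.17, 3.54 and 4.77 CPM at 0 h and 13.6, 6.48 and 9.41 CPM at 48 h (log2 fold change 0.94 ± 0.14, adjusted p = 0.0358). Neither was far above its 0 h level at 12 h, with 15.1, 16.1 and 14.7 CPM of Mt1 and 4.47, 4.24 and 4.97 CPM of Mt2A. Other well-known members did not pass the test, among them Tsc22d3 (0.27 ± 0.073), Per1 (0.097 ± 0.11) and Zbtb16. The last had 3.59, 2.66 and 4.06 CPM at 0 h and 8.24, 5.35 and 5.09 CPM at 48 h (log2 fold change 0.69 ± 0.17, adjusted p = 0.0953). The receptor Nr3c1 had 131, 128 and 128 CPM at 0 h and 121.7, 117 and 126 CPM at 48 h (log2 fold change -0.087 ± 0.056, adjusted p = 0.389). The count of 4 was 2, 7 and 3 without litters 1, 2 and 3.

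Mt1 and Mt2A lie 5733 bases apart between starts and on the same strand. Their promoters are shown from RefSeq (GRCr8) because both rose, Mt1 at chr19:10832976-10833225 and Mt2A at chr19:10838709-10838958, both on the minus strand. Capitals mark matches, on either strand, to the core of the metal response element, searched as TGCACNC or TGCGCNC, with 6 matches in Mt1 and 4 in Mt2A. At least 1 match was found in 20.6% of all promoter windows and in 31.2% of those of the genes tested.
Mt1: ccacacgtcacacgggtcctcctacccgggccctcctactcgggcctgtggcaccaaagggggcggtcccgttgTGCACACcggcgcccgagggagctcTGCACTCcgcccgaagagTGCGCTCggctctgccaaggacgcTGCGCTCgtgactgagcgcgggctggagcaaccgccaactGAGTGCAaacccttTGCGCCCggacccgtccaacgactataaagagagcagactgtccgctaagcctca
Mt2A: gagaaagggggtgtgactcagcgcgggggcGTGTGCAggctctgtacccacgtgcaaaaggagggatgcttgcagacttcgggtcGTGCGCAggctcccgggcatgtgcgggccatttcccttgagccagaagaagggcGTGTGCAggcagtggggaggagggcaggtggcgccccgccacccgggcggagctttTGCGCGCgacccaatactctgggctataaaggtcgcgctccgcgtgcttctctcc

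Signalling and stress genes gave scattered calls, where 1.15% of all genes tested rose and 1.04% fell. Id3, a target of bone morphogenetic proteins, fell from 109, 83.7 and 104 CPM to 68.2, 57.0 and 73.8 CPM (log2 fold change -0.57 ± 0.062, adjusted p = 0.018), the only one of 23 tested genes of that pathway and its TGF-beta relatives to be called. In the Wnt pathway (26 tested), the ligand Wnt4 (-0.49 ± 0.087) and the receptor Lgr4 (-0.35 ± 0.053) fell. The count of falls was 1 with TMM scaling, 0 with edgeR, 0 without litter 1, 5 without litter 2 and 0 without litter 3, and with DESeq2 2 rose and 2 fell. In the Notch pathway (10 tested), the receptor Notch4 rose from 8.43, 11.6 and 9.39 CPM to 17.8, 22.3 and 14.6 CPM (log2 fold change 0.82 ± 0.11, adjusted p = 0.03), and Lfng, which modifies Notch, fell (-0.32 ± 0.057). With TMM scaling, edgeR or DESeq2 0 genes of this list fell. Dhrs3, which turns retinal back to retinol, rose from 4.41, 4.29 and 6.00 CPM to 14.5, 8.20 and 11.5 CPM (log2 fold change 1.05 ± 0.17, adjusted p = 0.039). Of 21 tested cell cycle inhibitors and p53 targets, Cdkn1a, which encodes p21 (0.33 ± 0.057), and Tp53inp1 (0.49 ± 0.079) rose. Ddit4, an inhibitor of mTOR signalling (0.42 ± 0.075), and the lipoprotein receptor Vldlr (0.58 ± 0.099) rose, and the small heat shock protein Cryab fell (-0.49 ± 0.078). Without litter 1, 0 genes were called in the Notch, retinoic acid, cell cycle inhibitor and heat shock lists. Without litter 3, 0 were called in the last 3 of these or in the hypoxia and ATF4 lists that hold Ddit4 and Vldlr. Cell division genes gave no calls: of 29 DNA replication and 30 mitosis genes tested, 0 were called by limma, edgeR or DESeq2, and 5 and 6 had an unadjusted p under 0.05. Over all genes tested 2774 of 12212 did. Of the DNA replication genes 13 were higher in all 3 litters and 2 lower, and of the mitosis genes 2 were higher and 10 lower. Over all genes 17.8% were higher and 29.0% lower.

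Of 12 tested transcripts made by the mitochondrial genome, 2 fell and 0 rose: Mt-nd2 and Mt-nd3, which encode subunits of complex I. All 12 had a negative change, with a median of -0.76, and 11 were lower in all 3 litters (29.0% of all genes were). Mt-nd2 had 442, 774 and 505 CPM at 0 h and 300.3, 374 and 194 CPM at 48 h (log2 fold change -0.99 ± 0.14, adjusted p = 0.0323). Litter 2 was highest at 0 h, and litter 3 was lowest at 48 h. The summed level of the list was 5528 to 10503 CPM at 0 h and 3015 to 5498 CPM at 48 h, so the share of reads from these genes was lower at 48 h in each litter. Of 12 tested, 11 fell without litter 1, 3 without litter 2 and 1 without litter 3. Of 17 tested nuclear-encoded subunits of the respiratory chain 0 were called by limma, edgeR or DESeq2, 2 had an unadjusted p under 0.05, and the median was -0.091. In all 3 litters 11 of the 17 were lower and 0 higher (29.0% and 17.8% of all genes were). Whether the mitochondrial share bears on the other changes was not tested.

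Splicing factors were grouped by symbol after their values were seen. Over all genes tested 1.04% fell and 29.0% were lower in all 3 litters. Of 10 tested Srsf genes, whose proteins bind exons and guide splicing, 3 fell and 0 rose, and 8 were lower in all 3 litters, with a median of -0.21. Srsf5 had 160.4, 221 and 192 CPM at 0 h and 118, 132 and 108 CPM at 48 h (log2 fold change -0.67 ± 0.083, adjusted p = 0.0259), Srsf2 changed by -0.48 ± 0.058 and Srsf1 by -0.30 ± 0.052. Hnrnp proteins bind nascent RNA. Of 20 tested Hnrnp entries, which include the pseudogene Hnrnpr-ps2, 2 fell (Hnrnph1, -0.45 ± 0.058, and Hnrnpdl, -0.41 ± 0.071), and 14 were lower in all 3 litters. Counts for these families were taken in the main fit only, not under the alternatives. The ratio of the 48 h mean to the 0 h mean of these 5 genes ran from 0.624 for Srsf5 to 0.810 for Srsf1.

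Markers of cell types were also followed, and their RNA levels do not separate a change in cell number from a change in RNA per cell. The summed level of the 17 macrophage markers (16 tested) was 249.5, 50.4 and 94.4 CPM at 0 h and 403, 70.7 and 519.5 CPM at 48 h, higher at 48 h in each litter, and lowest in litter 2 at both times. The median change of the 16 was 1.03 and 8 were higher in all 3 litters (17.8% of all genes were). None was called by limma or edgeR, 2 were called with DESeq2, and 12 rose once litter 2 was left out. An unadjusted p under 0.05 was reached by 12 of the 16, against 2774 of all 12212 genes tested. Lyz2, lysozyme, had 144, 17.1 and 47.8 CPM at 0 h and 209.8, 36.2 and 268 CPM at 48 h. C1qa, of complement, had 2.68, 1.50 and 1.30 CPM at 0 h and 11.3, 0.891 and 22.01 CPM at 48 h, which is below its 0 h level in litter 2. Cd163 was listed at 0 in all 48 h libraries. Of the genes above, Col4a3, Lama2 and Glul also rose least in litter 2. They rose most in litter 1, whereas the macrophage sum rose most in litter 3. Cyp17a1 rose least in litter 3, and the part of macrophage RNA in these rises was not tested.

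Of 19 tested germ cell markers, 0 were called by limma, edgeR or DESeq2, and 7 had an unadjusted p under 0.05 (2774 of all 12212 genes tested did). At 48 h 8 were lower in all 3 litters (29.0% of all genes were), and the median was -0.34. The receptor Ret, through which spermatogonia sense GDNF, had 25.5, 25.2 and 26.8 CPM at 0 h and 23.4, 15.9 and 14.7 CPM at 48 h, lower without overlap (log2 fold change -0.52 ± 0.14, adjusted p = 0.102). Ddx4, an RNA helicase of germ cells, had 6.71, 4.62 and 7.18 CPM at 0 h and 6.18, 3.27 and 4.67 CPM at 48 h (log2 fold change -0.34 ± 0.14, adjusted p = 0.206). Stra8, a marker of cells about to enter meiosis, was at or near 0 throughout. Of the 14 tested Sertoli cell markers 0 were called by limma or edgeR, 1 was called with DESeq2, and 3 had an unadjusted p under 0.05, with a median of -0.034. Clu, an abundant Sertoli cell protein, had 1243, 1255 and 1215 CPM at 0 h and 967, 1152 and 801 CPM at 48 h (log2 fold change -0.36 ± 0.10, adjusted p = 0.111).

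Of 15 tested markers of peritubular myoid and smooth muscle cells, the cells around the tubules, 2 fell: Actg2 from 153, 151 and 182 CPM to 119, 93.5 and 102 CPM (log2 fold change -0.63 ± 0.094, adjusted p = 0.0358) and Tpm1 (-0.37 ± 0.067). Over all genes tested 1.04% fell. The count of 2 myoid markers was 1 with TMM scaling or edgeR, 1 without litter 1 and 0 without litter 3. Acta2 had no common direction (log2 fold change -0.088 ± 0.099, adjusted p = 0.632), with a sign that turned without litter 3. Myh11 had 567, 618 and 696 CPM at 0 h and 1063, 659 and 885 CPM at 48 h (log2 fold change 0.45 ± 0.14, adjusted p = 0.146). Of 11 tested interstitial progenitor markers 2 fell, among them Nes (-0.46 ± 0.076). That count was 0 with TMM scaling, with edgeR, without litter 1 and without litter 3. With DESeq2 2 of the list rose and 2 fell, and without litter 2 3 rose and 2 fell. Pdgfra, a further marker of those cells, was higher in each litter but not called, at 282, 361 and 201 CPM at 0 h and 796, 467 and 527 CPM at 48 h (log2 fold change 1.08 ± 0.20, adjusted p = 0.052). Kdr, the endothelial receptor for VEGF, fell (-0.49 ± 0.070, 1 of 8 tested endothelial markers), though 0 of these fell without litter 1 or without litter 3. Ngfr, a marker of Schwann cells, fell within each litter from 74.0, 83.7 and 33.2 CPM to 35.3, 51.2 and 21.2 CPM (log2 fold change -0.79 ± 0.094, adjusted p = 0.0217). Red blood cell markers summed to 13.5 to 42.0 CPM at 0 h and 12.3 to 31.7 CPM at 48 h.

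Sectm1a, at a change near that of Cyp17a1, was also among the 15 largest rises. It encodes a secreted and transmembrane protein and had 2.44, 8.70 and 0.828 CPM at 0 h and 99.6, 50.1 and 23.9 CPM at 48 h (log2 fold change 3.68 ± 0.40, adjusted p = 0.018), highest in litter 1 at 48 h and higher in every litter. Prkcb, protein kinase C beta, had 21.1, 47.1 and 14.6 CPM at 0 h and 147, 97.8 and 81.1 CPM at 48 h (log2 fold change 2.06 ± 0.29, adjusted p = 0.0323). Tgm2, tissue transglutaminase, which crosslinks matrix proteins, had 99.1, 101 and 96.2 CPM at 0 h and 432, 280.0 and 254 CPM at 48 h with a narrow range at 0 h (log2 fold change 1.65 ± 0.14, adjusted p = 0.0116). Lpar1, a receptor for lysophosphatidic acid, changed almost equally in the 3 litters, at 1.83, 2.02 and 1.66 on the log2 scale (log2 fold change 1.84 ± 0.13, adjusted p = 0.00562).

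Fbxo32, a ubiquitin ligase known from muscle wasting, had 30.8, 60.8 and 29.5 CPM at 0 h and 181, 112 and 119 CPM at 48 h, with the smallest rise in litter 2 (log2 fold change 1.79 ± 0.27, adjusted p = 0.0358). C7, a complement component, had 118, 69.7 and 68.8 CPM at 0 h and 484, 126 and 253 CPM at 48 h (log2 fold change 1.58 ± 0.21, adjusted p = 0.0288). Htr3a, a serotonin-gated channel, reached 7.63, 7.49 and 4.20 CPM from 0.718, 1.79 and 0.434 CPM, and Crispld2 182, 118 and 130.0 CPM from 44.1, 37.3 and 62.5 CPM. Rprml, L3mbtl4 and Frmd7 rose as well, by 1.60 ± 0.13, 2.09 ± 0.28 and 2.11 ± 0.27, the last from 0.197 to 0.666 CPM at 0 h.

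Among other genes that rose, picked out after their values were seen, Selenop, the selenium carrier, had 105, 137 and 122.4 CPM at 0 h and 429.8, 320.1 and 332 CPM at 48 h (log2 fold change 1.56 ± 0.14, adjusted p = 0.016). Epas1, which encodes the hypoxia factor HIF-2 alpha, had 66.7, 82.1 and 61.2 CPM at 0 h and 229, 183 and 138 CPM at 48 h (log2 fold change 1.36 ± 0.12, adjusted p = 0.016). Adamtsl2, a matrix protein, had 106, 77.5 and 128 CPM at 0 h and 271, 229 and 268 CPM at 48 h (log2 fold change 1.32 ± 0.093, adjusted p = 0.00562). Klf15, a transcription factor of fasting metabolism, had 11.2, 9.95 and 8.84 CPM at 0 h and 23.3, 19.2 and 20.1 CPM at 48 h (log2 fold change 0.99 ± 0.093, adjusted p = 0.0166). The cell death gene Bcl2l11, known as Bim, had 12.6, 16.0 and 12.8 CPM at 0 h and 29.6, 27.5 and 29.4 CPM at 48 h (log2 fold change 1.02 ± 0.11, adjusted p = 0.018). For each of these 5 genes all 48 h libraries lay above all 0 h libraries.

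**Figure D4:**
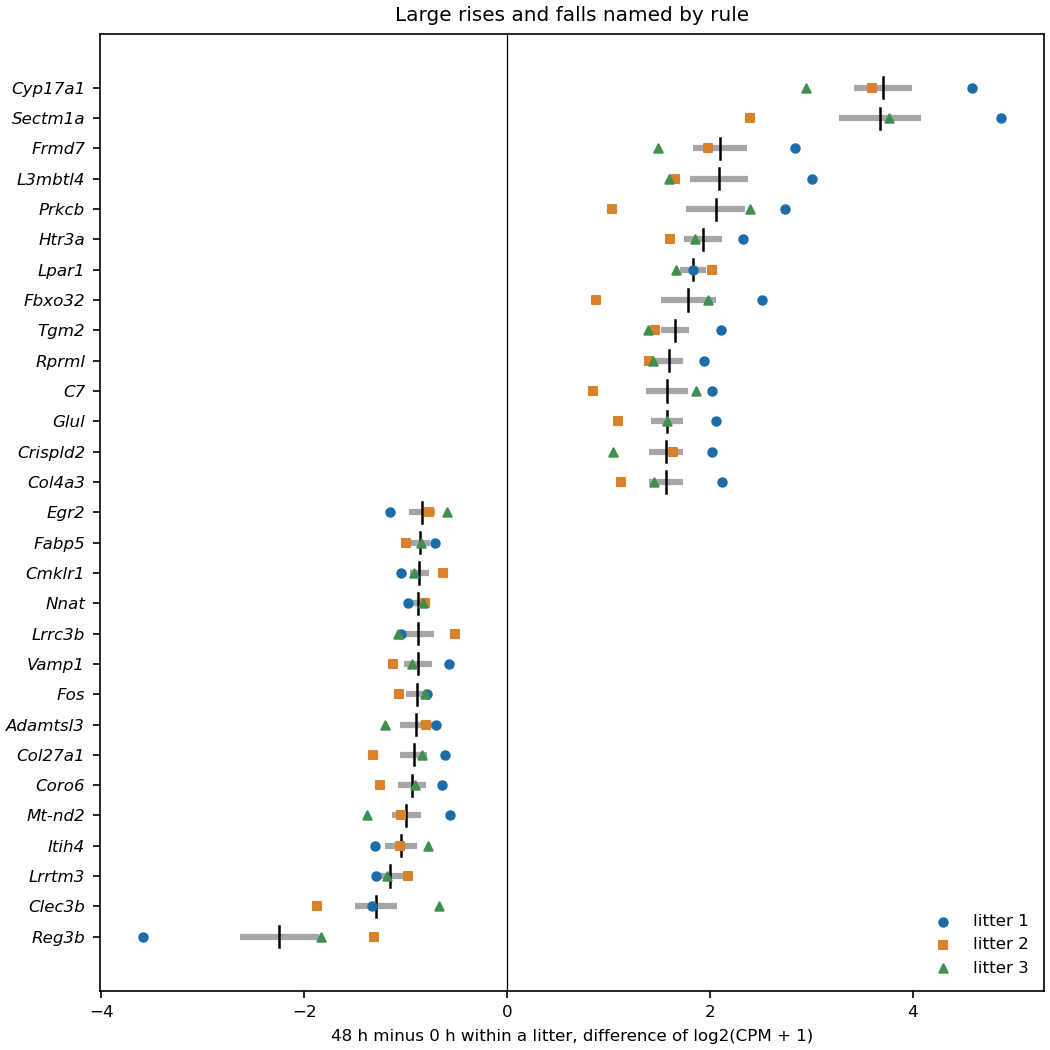
Of the largest rises and falls chosen by rule, 14 rises and 15 falls are drawn. Coloured points are the changes from 0 h to 48 h within each litter (difference of log2(CPM + 1)). A black tick marks the mean over litters and a grey bar the SE of the limma fit, which borrows spread from other genes. Litter 1 (circles) lies farthest out for all rises drawn except Lpar1, and the falls other than Reg3b have means closer to 0 than any rise drawn.

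Fewer falls than rises reached 2-fold. Reg3b, a secreted antimicrobial lectin, had 38.1, 20.6 and 28.9 CPM at 0 h and 2.24, 7.73 and 7.40 CPM at 48 h, with the deepest fall in litter 1 (log2 fold change -2.24 ± 0.39, adjusted p = 0.045). Clec3b, which encodes tetranectin, had 35.8, 18.3 and 20.2 CPM at 0 h and 13.6, 4.28 and 12.3 CPM at 48 h (log2 fold change -1.29 ± 0.21, adjusted p = 0.0405). Nnat, neuronatin, an imprinted gene within an intron of Blcap, had 555, 361 and 384 CPM at 0 h and 281, 205 and 216 CPM at 48 h and fell almost equally in the 3 litters (log2 fold change -0.87 ± 0.061, adjusted p = 0.00562). Its level at 12 h, 604, 343 and 432 CPM, was close to that at 0 h.

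Cmklr1, the receptor for chemerin, went from 53.6, 37.8 and 43.2 CPM to 25.5, 24.1 and 22.5 CPM (log2 fold change -0.86 ± 0.094, adjusted p = 0.018). Col27a1, a collagen of cartilage, went from 44.2, 58.3 and 55.9 CPM to 28.7, 22.8 and 30.9 CPM (log2 fold change -0.92 ± 0.13, adjusted p = 0.0323). Vamp1, a vesicle fusion protein, and Coro6, a coronin, fell by a like amount, at -0.88 ± 0.14 and -0.93 ± 0.14. The low genes Lrrtm3 (-1.15 ± 0.15), Itih4 (-1.04 ± 0.16), Adamtsl3 (-0.90 ± 0.16) and Lrrc3b (-0.88 ± 0.16) fell as well, the last from 7.95, 5.33 and 8.68 CPM to 3.33, 3.45 and 3.61 CPM. In 8 of the 77 called genes chosen by rule the gene overlaps another named RefSeq gene (Glul, Lrrtm3, Adamtsl3, Nnat, Idi1, Mmp11, Timp3 and Cryab), and since the libraries do not keep strand, reads of such pairs cannot be told apart.

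The earlier times were compared in the same way. These comparisons share their 48 h or 0 h libraries, so they are given side by side only. Between 48 h and 12 h, limma called 7 genes (0.0573%), between 48 h and 2 h 1360 (11.1%), between 2 h and 0 h 308 (2.52%) and between 12 h and 0 h 1 (0.00819%). The single gene called at 12 h against 0 h was Cyp17a1, at a change of 3.01 ± 0.13 (adjusted p = 0.00327), and between 48 h and 12 h it changed by a further 0.70 ± 0.30 (adjusted p = 0.383).

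Of the 7 genes called between 48 h and 12 h, 4 fell and 3 rose. They are named although most lie outside the rule. Nnat (-0.95 ± 0.076, adjusted p = 0.028), Cilp (-0.83 ± 0.058, adjusted p = 0.028), Ldb2 (-0.67 ± 0.067, adjusted p = 0.04998) and Prss35 (-0.62 ± 0.058, adjusted p = 0.0391) fell. Upwards went Sulf2 (0.79 ± 0.070, adjusted p = 0.034), Ephx1 (0.74 ± 0.066, adjusted p = 0.034) and Creg1 (0.71 ± 0.055, adjusted p = 0.028). Prss35 encodes a serine protease, Cilp a cartilage matrix protein and Sulf2 an enzyme that trims heparan sulphate. Of them 5 were also called between 48 h and 0 h in the same direction. No call remained without litter 2, 169 genes were called without litter 1 and 16 without litter 3, and at an unadjusted p under 0.05 there were 1618 genes.

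Each litter has 1 library per time, so a difference between litters could not be tested. Leaving out both libraries of litter 2 raised the number of calls, and leaving out litter 1 or 3 lowered it. Of the 267 genes 84, 253 and 82 were still called without litters 1, 2 and 3.

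**Figure D5:**
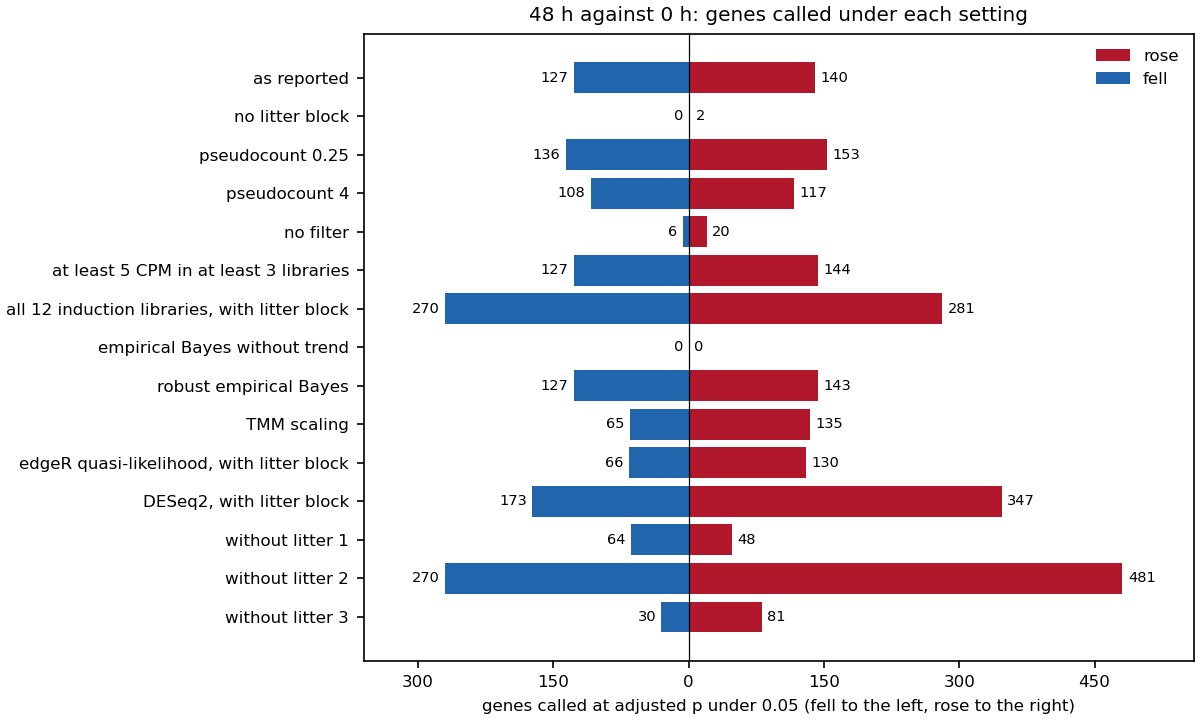
Bars give the number of genes called between 48 h and 0 h at an adjusted p under 0.05 under each setting, rises in red to the right and falls in blue to the left. The reported fit gives 140 and 127, the fits without the litter term or without the trend give 2 or fewer, and leaving out litter 2 gives the longest bars, with 751 calls in all.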

How the data were processed

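Poly(A) RNA was sequenced from non-directional libraries, and reads were aligned with STAR to mRatBN7.2, per the submitters' processing notes, which give no version. The counting tool and annotation are not given in the sources used here. The deposited values are CPM, counts that the authors scaled to the total reads of each library. Every value was a whole multiple of the worth of 1 read within a tolerance of 0.01, so 100% of values gave whole reads. These recovered reads served as counts only for alternatives with edgeR 4.0.16 (196 genes called between 48 h and 0 h) and DESeq2 1.42.0 (520 called).

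Genes with at least 1 CPM in at least 3 of the 6 libraries were compared as log2(CPM + 1) in limma 3.58.1 (R 4.3.3), with litter as a block, an empirical Bayes trend and Benjamini-Hochberg adjustment over all 12212 genes. The litter is named in the labels, and deviations of same-litter libraries correlated at r = 0.199, 0.535 and 0.460 in litters 1, 2 and 3. The 6 pairs from different litters gave -0.627 to 0.322. The highest of these, 48 h of litter 3 with 0 h of litter 1, lay above the pair of litter 1 itself. On simulated data of 12131 genes, 92% of 100 genes changed 2-fold and 99% of 100 changed 4-fold were called. Of 208 calls 17 were false, a larger share than the threshold set for the adjusted p. Whether the simulated litters were paired as weakly as these libraries was not tested. These rates therefore describe the simulated data only and do not give the power or the reliability of the real comparison. The comparison, the 53 gene lists and the named genes were chosen with earlier results of these data known. Genes named were the 15 largest rises and falls among called genes whose groups did not overlap and whose higher mean reached 5 CPM, up to 5 called members of each list, and a panel of well-known testis genes. Further genes described are members of those lists, or are said to have been picked by value. A few of these genes are not reported here. The lists held 919 symbols, of which 39 were not analysed here. Promoters came from RefSeq (GRCr8), whose build differs from that of the reads, and were matched by symbol. Replicates of a time differed by 15.3 to 55.7 in chi-square per gene, so none was a repeat of another. Alternatives were the litter term, the trend, a robust prior, the pseudocount, the filter, TMM scaling, the other count tools, all 12 induction libraries in one fit, and leaving out each litter.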

Additional observations from a re-analysis of the deposited data

How the results depend on the processing

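The replicate block is the litter. Between 48 h and 0 h, 267 genes were called, and of the genes tested 1.15% rose and 1.04% fell. Without the block 2 genes were called (0.0164% rose, 0% fell), without the filter 26 (0.117% and 0.0351%), without the trend 0 (0% each, with 2445 at an unadjusted p under 0.05), with all 12 induction libraries 551 (2.3% and 2.21%) and with DESeq2 520 (2.84% rose). Falls were 0.532% with TMM scaling and 0.54% with edgeR. Leaving out 1 litter gave 111 to 751 calls, 0.393 to 3.94% rises and 0.246 to 2.21% falls. The 57 calls of at least 2-fold became 2 without the block, 32 with a pseudocount of 4, 16 without the filter, 0 without the trend, 108 with DESeq2 and 38 to 157 without 1 litter. Between 48 h and 12 h, 0 genes were called without the block and 0 to 169 without 1 litter. Between 48 h and 2 h the numbers were 285 and 0 to 937. With fewer litters fewer degrees of freedom remain, and otherwise the cause was not tested. Without 1 litter in turn, 4 small changes took either sign: Fshr ran from -0.15 to 0.057, Sox9 from -0.14 to 0.094, Acta2 from -0.17 to 0.020 and Nr5a1 from -0.047 (-0.022 without litter 2) to 0.11. None of these 4 genes was called. Depth limits the low genes: with 1 read worth up to 0.0606 CPM, a gene near the filter rests on few reads.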
